A study of Mus musculus with 6 samples.

Results

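Autophagy genes are described here as the 35 listed genes whose symbols were looked up in the deposited gene table, and all 35 were found among its 26106 genes. All 35 also passed the filter on low counts, so no member was left out of the tests. Macroautophagy encloses cytoplasmic cargo in a double membrane, the autophagosome, which then fuses with lysosomes. A kinase complex around ULK1 starts the process, a lipid kinase complex around Beclin 1 marks the membrane, ATG2 and ATG9 proteins supply it with lipid, and a pair of ubiquitin-like conjugation reactions attaches LC3 and GABARAP proteins to it, where cargo receptors such as p62 dock. In osteoclasts, proteins of the conjugation machinery are also known for directing lysosome secretion at the ruffled border, the membrane through which these cells resorb bone, and mutations of the p62 gene cause Paget's disease of bone in humans.

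The libraries came from wild-type bone marrow-derived macrophages of 6-week-old male C57BL/6 mice, primary cells from which osteoclasts form. Every culture received 10% serum with M-CSF at 30 ng/mL and RANKL at 100 ng/mL, the cytokines that drive osteoclast formation, and RNA was taken after 2 days. Ctrl cultures (n = 3) had no inhibitor and no named vehicle, and ZM cultures (n = 3) had 10 uM ZM-306416, an inhibitor of VEGF receptor kinases. No label states that replicates were taken from different mice or dishes, so the spread behind each p-value may be technical.

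Total counts ran from 45512004 to 54256377 per library, and the lowest count of any member in any library was 390. Within each group no pair of libraries agreed within sampling noise (chi-square per degree of freedom at least 6.25), so none was merged with another, which does not show that they came from separate cultures. ZM replicate 3 stood apart from the other ZM libraries, with a composition factor of 0.919 against 0.995 and 1.02. The summed level of 9 macrophage markers was 10231 to 11657 CPM (counts scaled to a common library size) in Ctrl and 18802 to 38940 CPM in ZM, and that of 9 osteoclast markers 4739 to 5028 CPM in Ctrl and 495 to 887 CPM in ZM, with the extreme in ZM replicate 3 both times. In the test described below, 6 macrophage markers rose, 0 fell and 3 did not pass, and all 9 osteoclast markers fell. Over all genes tested, 5.54% rose and 5.44% fell. Markers of neutrophils, B cells, T and NK cells, mast cells and dendritic cells summed to at most 8.88 CPM per list in any library. The B cell sum was 0.364 to 0.597 CPM in Ctrl and 0.707 to 1.74 CPM in ZM. The T and NK cell sum was 2.85 to 3.64 CPM in Ctrl and 3.23 to 8.88 CPM in ZM. Of the tested markers, 1 neutrophil and 1 dendritic cell marker fell, and 0 of the B, T and NK cell markers were called. Ms4a1 of B cells and Cd3e of T cells were at 0 in every library but ZM replicate 2. Tfrc carried the erythroid sum, at 207 to 237 CPM in Ctrl and 25.7 to 67.7 CPM in ZM. Kdr and Vwf carried the endothelial sum, at 92.4 to 98.1 CPM in Ctrl and 38.8 to 50.6 CPM in ZM. Runx2 carried the stromal sum, at 19.3 to 21.1 CPM in Ctrl and 14.6 to 17.4 CPM in ZM. In the erythroid list and in the endothelial list, 2 of 4 tested markers fell and 0 rose. Of 5 tested stromal markers, 0 were called. In such bulk samples a change in the share of cells of a kind and a change of RNA per cell cannot be told apart, and the part of these marker shifts in the results on autophagy genes was not tested.

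The comparison of ZM with Ctrl asked whether transcripts of the autophagy machinery moved with the inhibitor. Most of them differed little between the groups. The cargo receptor gene Nbr1 and the lipid transfer gene Atg2b fell, Atg5 of the conjugation machinery rose, and the other 32 members did not pass the test. Thus 1 of 35 rose and 2 fell (8.57% called), where 5.54% of the 15590 genes tested rose and 5.44% fell (11.0% called), so the share of called members was near that of all genes. The test was edgeR's quasi-likelihood test with Benjamini-Hochberg adjustment over all genes tested, and a gene was called where its adjusted p was under 0.05. Log2 folds of the members ran from -0.64 to 0.83 with a median of 0.17, beside a median of 0.00274 over all genes tested, and 25 of 35 were positive. The median size of the log2 fold, whatever its sign, was 0.23 for the members and 0.31 for all genes tested. The groups did not overlap for 20 members, 18 of them higher (51.4% of members) and 2 lower with ZM (57.1% together), where 42.9% of all genes tested did not overlap, 21.5% higher and 21.4% lower. The count of calls depended on single libraries. Without any 1 Ctrl library or without ZM replicate 1, edgeR called 0 members, with 6 to 14 members at an unadjusted p under 0.05 and 1.12%, 1.40%, 0.921% and 4.17% of all genes called. Without ZM replicate 2 it called 16 members and 31.4% of all genes, and without ZM replicate 3 it called 8 members and 19.5% of all genes. DESeq2 called 9 members on all 6 libraries, 7 risen and 2 fallen, with 21.1% of all genes called. The same 21.1% is the share to set beside the DESeq2 counts of single roles and lists below. The share of all genes with an unadjusted p under 0.05 was not counted. Counts of members or listed genes at that level, here and below, thus have no background beside them and are not read as an excess.

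**Figure D1:**
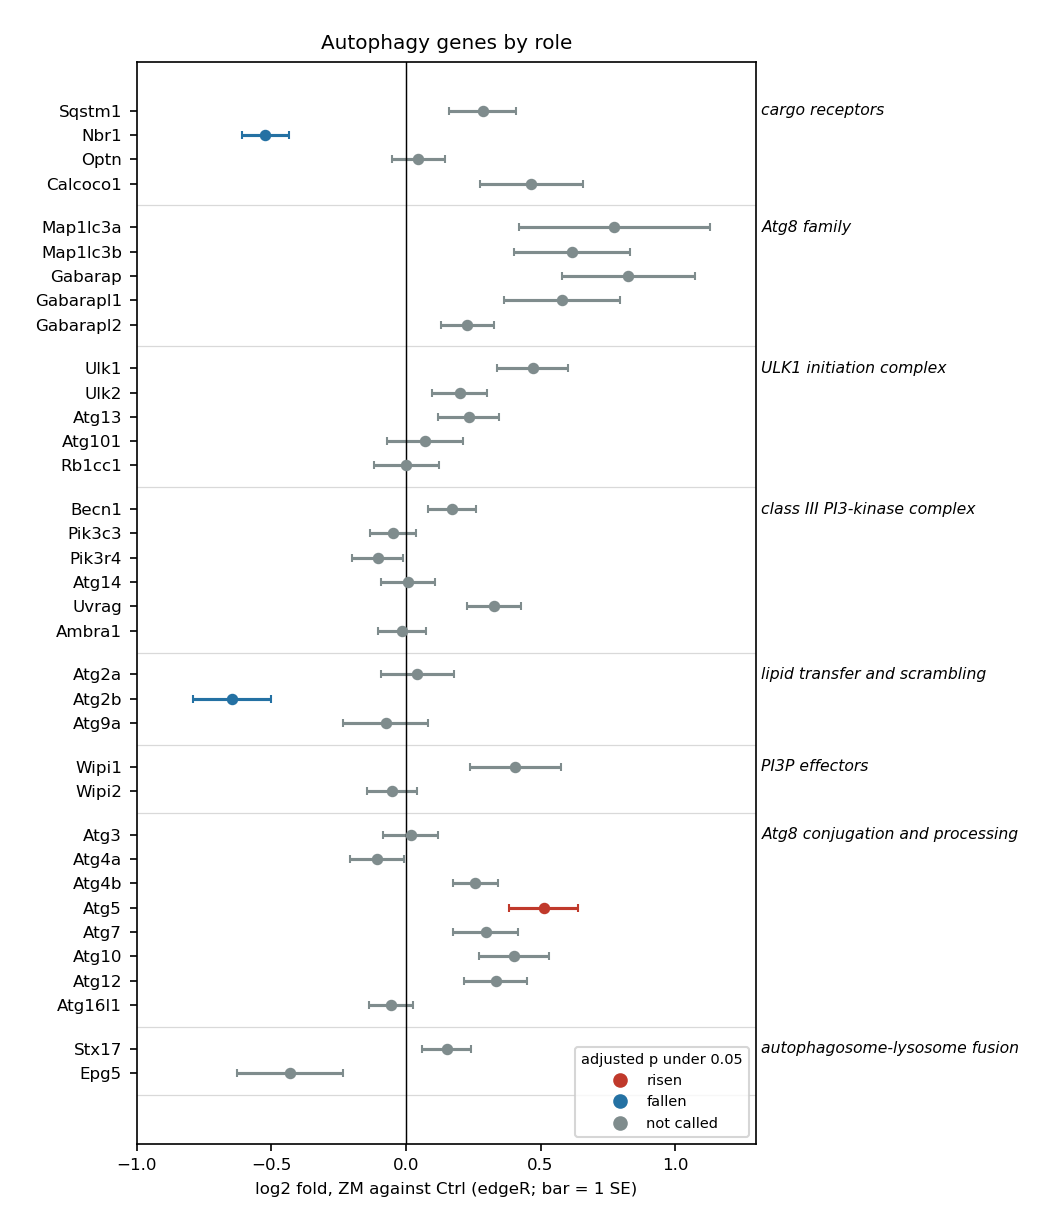
Log2 fold of each of the 35 autophagy genes, ZM against Ctrl (x axis), with genes grouped by role (y axis); points are edgeR estimates from 3 libraries per group and bars are 1 SE. Nbr1 at -0.52 and Atg2b at -0.64 fell, Atg5 at 0.51 rose, and all 5 genes of the Atg8 family lie above 0 without passing the test.

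The ZM libraries were more spread than the Ctrl libraries for 31 of 35 members (88.6%), near the 83.3% of all genes tested. The coefficient of variation had a median of 3.40% in Ctrl and 12.9% in ZM over the members, beside 6.31% and 19.3% over all genes tested. ZM replicate 3 had the highest level of the ZM libraries for 24 members (68.6%) and the lowest for 7, whereas over all genes tested it was highest for 40.6% and lowest for 41.8%. Among the 18 members that were higher with ZM without overlap, ZM replicate 3 was the highest library for 17. That share was not taken over all genes higher with ZM without overlap, so the 17 are not read as a trait of the members. The members together held 0.273% to 0.275% of the counts in Ctrl and 0.300%, 0.289% and 0.352% across ZM replicates 1 to 3.

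**Figure D2:**
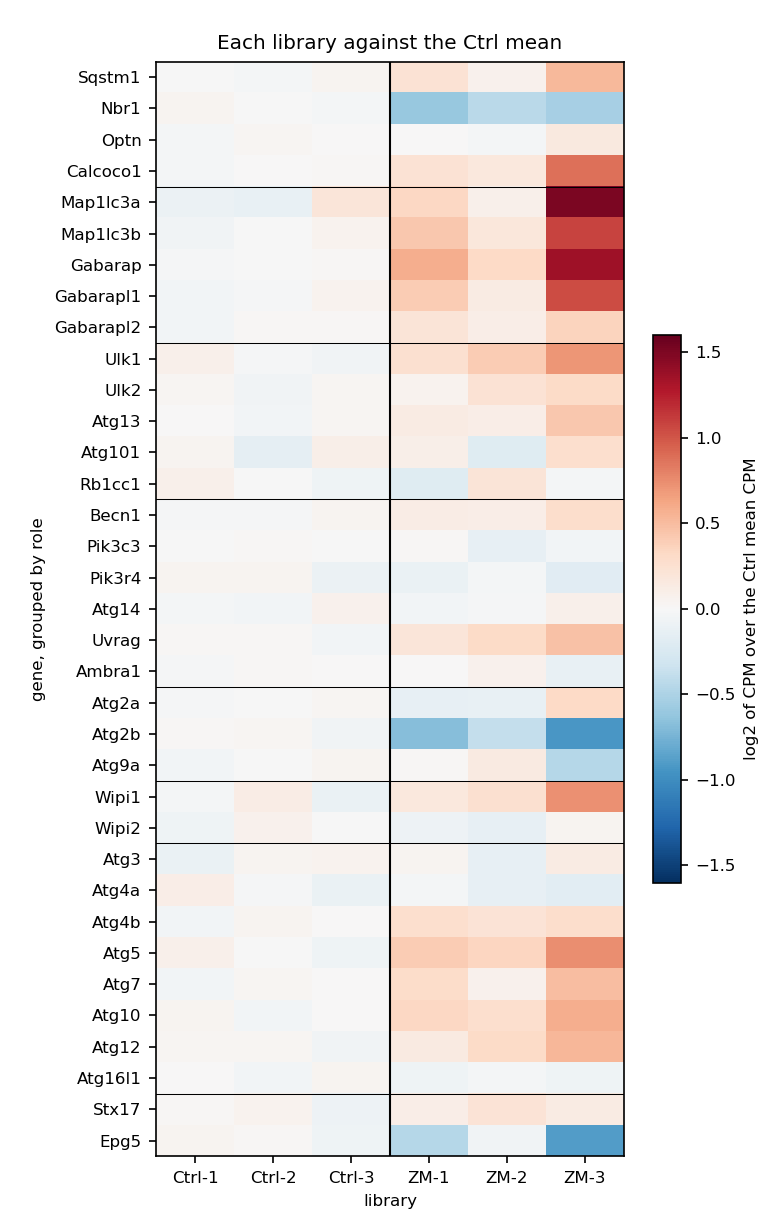
Level of each autophagy gene in each of the 6 libraries, as log2 of its CPM over the mean CPM of the 3 Ctrl libraries (colour), with genes grouped by role from cargo receptors at the top to fusion genes at the bottom. ZM replicate 3 has the deepest colours, with Map1lc3a and Gabarap the highest and Atg2b and Epg5 the lowest.

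Levels can be set against each other only per gene length, for which the authors' FPKM served. Mean FPKM over the 6 libraries ran from 2.77 for Epg5 to 277 for Sqstm1, with a median of 7.32. Gabarap followed at 211, then Gabarapl1 at 41.6, Atg3 at 28.3, Gabarapl2 at 21.2 and Atg5 at 20.7 FPKM. The length behind the FPKM was the sum of all annotated exons, which was 7517 bases for Map1lc3b and 1181 bases for Map1lc3a. The FPKM of Map1lc3b (16.1) and Map1lc3a (12.04) rest on these lengths.

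Cargo receptors bind ubiquitin-tagged or membrane cargo and LC3 or GABARAP at once. Nbr1 (ENSMUSG00000017119, chromosome 11, 101552149 to 101581951, forward strand of GRCm38), which takes up ubiquitinated cargo and peroxisomes, was the called gene among them. Its level was 158, 153 and 150.1 CPM across Ctrl replicates 1 to 3 and 101, 114 and 106 CPM across ZM replicates 1 to 3. Every ZM library was below every Ctrl library. The mean fell from 154 ± 4.08 to 107 ± 6.48 CPM (SD, n = 3 per group), a log2 fold of -0.52 (SE 0.09, edgeR adjusted p = 0.0151). The adjusted p ranged from 0.0922 to 0.106 when 1 Ctrl library was left out and was 0.0531 with ZM replicate 1 left out, while the log2 fold stayed between -0.57 and -0.48 with any 1 library left out.

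Sqstm1 encodes p62, which also binds the RANK adaptor TRAF6, and had the highest FPKM of the members. It was at 834, 823 and 866 CPM across Ctrl replicates 1 to 3 and at 988, 883 and 1204 CPM across ZM replicates 1 to 3. All ZM libraries lay above the Ctrl libraries, ZM replicate 2 by the smallest distance, and the difference did not pass the test (log2 fold 0.29, SE 0.13, edgeR adjusted p = 0.165; 0.16 on the log2 scale without ZM replicate 3). Nbr1 and Sqstm1, whose proteins share a domain structure and act together on ubiquitinated cargo, thus had log2 folds of opposite sign; the difference between their folds was not tested. Optn, the receptor optineurin, a gene with variants linked to Paget's disease in humans, was between 21.4 and 24.4 CPM in all libraries with overlapping groups (log2 fold 0.05, SE 0.10). Calcoco1, a receptor for endoplasmic reticulum and Golgi cargo, had a log2 fold of 0.47 (SE 0.19, edgeR adjusted p = 0.142), which was 0.20 without ZM replicate 3.

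The Atg8 family comprises the small ubiquitin-like proteins that are joined to the autophagosome membrane. All 5 genes had positive log2 folds, from 0.23 to 0.83, and edgeR called 0 of them, with 3 at an unadjusted p under 0.05 and 2 called by DESeq2 (Gabarap and Map1lc3b). Gabarap (ENSMUSG00000018567, chromosome 11, 69991143 to 69994951, forward strand) was the most abundant of them per length. Its level was 281, 283 and 289 CPM across Ctrl replicates 1 to 3 and 426, 356 and 729.8 CPM across ZM replicates 1 to 3. The Ctrl libraries were close to each other (284 ± 4.18 CPM, SD, n = 3), and ZM replicate 3 was far above the other ZM libraries. Gabarap had the largest log2 fold of the 35 members, 0.83 (SE 0.25, edgeR adjusted p = 0.0716), and 0.46 without ZM replicate 3, where it was called (adjusted p = 0.00638). DESeq2 called it on all libraries (adjusted p = 0.0125), as did edgeR with no filter on low counts (0.0267).

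Map1lc3b, which encodes the LC3 protein used most widely to follow autophagosomes, was at 93.2 to 101 CPM in Ctrl and at 131, 109.9 and 205 CPM across ZM replicates 1 to 3 (log2 fold 0.62, SE 0.21, edgeR adjusted p = 0.101). Without ZM replicate 3 its log2 fold was 0.32 and was called (adjusted p = 0.0397). Gabarapl1 was at 65.6 to 70.7 CPM in Ctrl and 89.7, 74.5 and 140.0 CPM across ZM replicates 1 to 3, a log2 fold of 0.58 (SE 0.22) that was 0.28 without ZM replicate 3. For both genes the groups did not overlap and ZM replicate 2 was the ZM library nearest to Ctrl. Map1lc3a was named after its values were seen, for the distance of ZM replicate 3. It was at 9.98, 9.82 and 12.2 CPM across Ctrl replicates 1 to 3 and at 13.4, 11.3 and 30.2 CPM across ZM replicates 1 to 3, with overlapping groups. Its log2 fold of 0.77 (SE 0.36) was 0.21 without ZM replicate 3. Gabarapl2, known for a role in traffic through the Golgi, had the smallest fold of the family, 0.23 (SE 0.10), at 44.3 to 46.2 CPM in Ctrl and 49.0 to 58.4 CPM in ZM. Reads of Gabarapl2 are uncertain, because transcripts of 3 annotated pseudogenes match 349 to 352 bases of it at 96.6% identity or more. Its exons sum to 2325 bases, and the pseudogene with the most reads had 135 counts against 14892.

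Within the family, Gabarap held a larger share of the FPKM in each ZM library than in any Ctrl library. Its share of the family's summed FPKM was 67.7%, 67.4% and 66.6% across Ctrl replicates 1 to 3 and 70.6%, 70.1% and 72.9% across ZM replicates 1 to 3. The share of Gabarapl2 was 8.48%, 8.69% and 8.44% in Ctrl and 6.91%, 7.65% and 4.63% in ZM, in the same order of replicates. Shares of Map1lc3b and Gabarapl1 were also lower with ZM without overlap, at 5.22% ± 0.179 against 5.62% ± 0.0878 and 13.3% ± 0.439 against 14.7% ± 0.213 (SD, n = 3 per group). That of Map1lc3a overlapped. The exact two-sided permutation test gave p = 0.1 for each of the 4 shares without overlap (0.125 adjusted over the 5 genes). That p is the smallest this test can give for 3 against 3 libraries, so it could not reach 0.05 and the shares are a description.

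**Figure D3:**
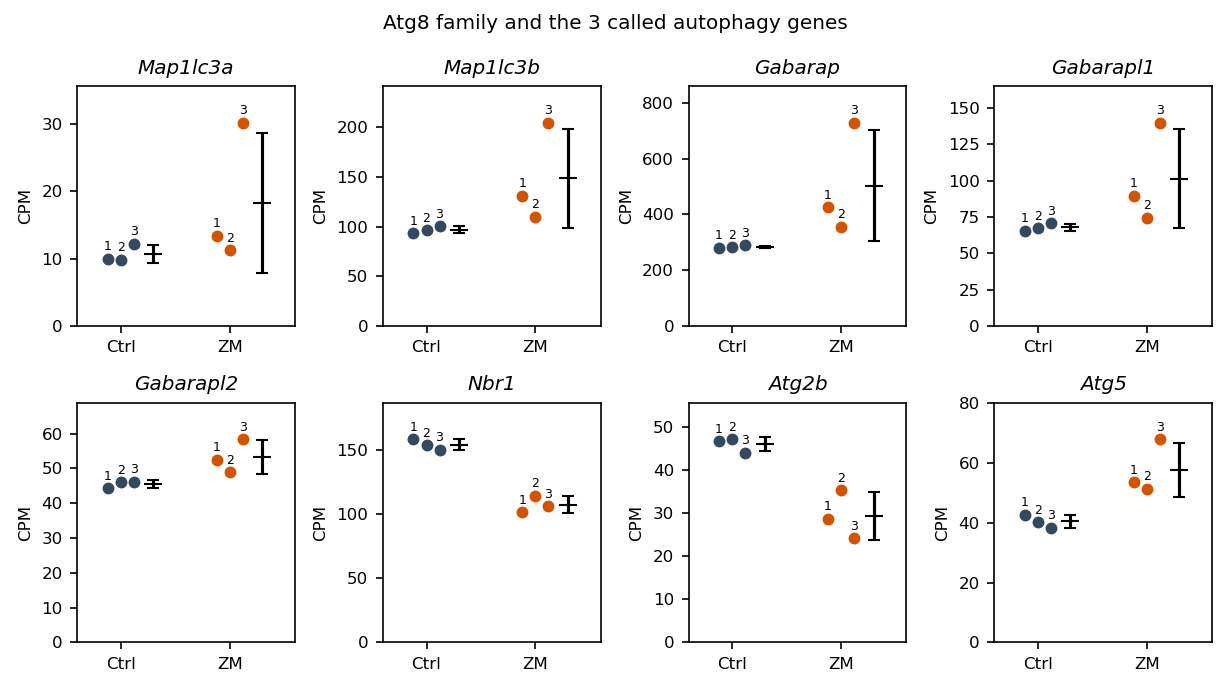
CPM of the 5 Atg8 family genes and of Nbr1, Atg2b and Atg5 in each library (y axis from 0), with replicate numbers beside the points and mean ± SD of 3 libraries as bars. Gabarap reaches 729.8 CPM in ZM replicate 3, while Nbr1 is between 101 and 114 CPM in all ZM libraries, below the Ctrl libraries.

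The ULK1 complex receives the nutrient signals that start autophagy. edgeR called 0 of its 5 genes, with 1 at an unadjusted p under 0.05 and 1 called by DESeq2 (Ulk1 both times), and their log2 folds were 0.00179 to 0.47. Ulk1, the kinase that mTORC1 and AMPK regulate, was nearest to the threshold, at 31.2, 29.2 and 28.4 CPM across Ctrl replicates 1 to 3 and 35.5, 39.4 and 48.3 CPM across ZM replicates 1 to 3. The groups did not overlap (log2 fold 0.47, SE 0.13, edgeR adjusted p = 0.0597), and DESeq2 called it (adjusted p = 0.0204). Ulk2, its relative, and Atg13, the adaptor subunit, were also higher in each ZM library than in any Ctrl library, with log2 folds of 0.20 and 0.23 (SE 0.10 and 0.11), that of Atg13 being 0.12 without ZM replicate 3. Atg101, which stabilises Atg13 and had the highest FPKM of the complex, was at 23.6, 20.7 and 24.4 CPM across Ctrl replicates 1 to 3 and 24.6, 19.96 and 27.7 CPM across ZM replicates 1 to 3. Its groups overlapped, as did those of Rb1cc1, the scaffold FIP200, with a log2 fold of 0.00179 (SE 0.12).

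The class III phosphatidylinositol 3-kinase complex makes the lipid PI3P on the growing membrane. Its 6 genes had log2 folds of -0.10 to 0.33 and 0 called by edgeR (1 at an unadjusted p under 0.05, and 1 called by DESeq2, Uvrag both times). Uvrag, which directs the kinase to endosomes and late steps of autophagy, was at 53.0, 53.3 and 51.1 CPM across Ctrl replicates 1 to 3 and 59.9, 64.9 and 72.7 CPM across ZM replicates 1 to 3. Its groups did not overlap (log2 fold 0.33, SE 0.10, edgeR adjusted p = 0.0765). Stretches of 100 to 345 bases of its transcripts match those of other expressed genes such as Gga3 at 95% identity or more, so its reads are uncertain, and those of Atg12 likewise. Pik3c3, the catalytic subunit VPS34, was at 52.1, 52.9 and 52.2 CPM across Ctrl replicates 1 to 3 and 53.2, 48.0 and 50.9 CPM across ZM replicates 1 to 3, with overlapping groups (log2 fold -0.05, SE 0.09). Becn1, the scaffold Beclin 1, had a log2 fold of 0.17 (SE 0.09), without overlap. Pik3r4, the regulatory subunit VPS15, Atg14, which brings the complex to autophagy sites, and Ambra1, a Beclin 1 partner, overlapped between groups, with log2 folds of -0.10, 0.00760 and -0.01.

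Lipid supply to the membrane rests on ATG2 proteins, which carry lipids from the endoplasmic reticulum, and ATG9, which scrambles them between leaflets. Atg2b (ENSMUSG00000041341, chromosome 12, 105616136 to 105685211, reverse strand) had the lowest log2 fold of the 35 members. It was at 46.8, 47.2 and 44.1 CPM across Ctrl replicates 1 to 3 and 28.8, 35.3 and 24.2 CPM across ZM replicates 1 to 3. Every ZM library was below every Ctrl library, ZM replicate 2 by the smallest distance. The mean fell from 46.0 ± 1.69 to 29.4 ± 5.58 CPM (SD, n = 3 per group; log2 fold -0.64, SE 0.14, edgeR adjusted p = 0.0335), with adjusted p of 0.131 to 0.149 when 1 Ctrl library was left out and 0.0919 with ZM replicate 1 left out. Exons of Atg2b overlap those of Gskip by 383 bases on the opposite strand; Gskip had 5865 counts against 11347 and a log2 fold of 0.51 in the other direction (SE 0.15), not called. Atg2a, the paralog with an overlapping function, was at 54.8, 55.4 and 56.9 CPM across Ctrl replicates 1 to 3 and 51.1, 51.3 and 69.6 CPM across ZM replicates 1 to 3. The ZM libraries of Atg2a thus lay on both sides of Ctrl (log2 fold 0.04, SE 0.14). Atg9a overlapped between groups, with a log2 fold of -0.07 (SE 0.16) that was 0.086 without ZM replicate 3.

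WIPI proteins read PI3P and recruit the conjugation machinery, and edgeR and DESeq2 called 0 of their 2 genes, with 1 at an unadjusted p under 0.05 (Wipi1) by either tool. Wipi2, the form that binds ATG16L1, was at 53.8, 59.2 and 56.4 CPM across Ctrl replicates 1 to 3 and 53.4, 51.6 and 58.4 CPM across ZM replicates 1 to 3, with overlapping groups (log2 fold -0.05, SE 0.09). Wipi1 had a log2 fold of 0.41 (SE 0.17, edgeR adjusted p = 0.145) without overlap, and 0.21 without ZM replicate 3.

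The conjugation machinery cuts Atg8 proteins (ATG4 proteases), activates and transfers them (ATG7, ATG3) and places them on the membrane (the ATG12-ATG5-ATG16L1 complex). Its member ATG10 passes ATG12 to ATG5. Of the 8 genes of this machinery 1 rose and 0 fell (12.5% called), and 5 were higher with ZM without overlap. Over all genes tested, 11.0% were called and 21.5% were higher with ZM without overlap. edgeR gave 5 of the 8 an unadjusted p under 0.05, and DESeq2 called 3, where it called 21.1% of all genes. Atg5 (ENSMUSG00000038160, chromosome 10, 44268358 to 44364291, forward strand), whose product is joined to ATG12, was at 42.6, 40.2 and 38.4 CPM across Ctrl replicates 1 to 3. Across ZM replicates 1 to 3 it was at 53.5, 51.3 and 67.9 CPM, so each ZM library was above each Ctrl library. Its mean was 40.4 ± 2.13 CPM in Ctrl and rose to 57.6 ± 8.998 CPM in ZM (SD, n = 3; log2 fold 0.51, SE 0.13, edgeR adjusted p = 0.0444). That call was near the threshold: the adjusted p was 0.0515 with upper-quartile factors, 0.156 to 0.184 when 1 Ctrl library was left out and 0.0891 with ZM replicate 1 left out. Leaving out ZM replicate 3 gave a log2 fold of 0.38. Atg12, the partner of Atg5 in the conjugate, had a log2 fold of 0.33 (SE 0.12, edgeR adjusted p = 0.104), and Atg16l1, the subunit that fixes the site of conjugation, had one of -0.06 (SE 0.08) with overlapping groups.

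Atg4b, the main Atg8 protease, was at 41.5, 44.2 and 43.0 CPM across Ctrl replicates 1 to 3 and 51.6, 50.1 and 52.3 CPM across ZM replicates 1 to 3. The libraries of each group lay close together, and the groups did not overlap (log2 fold 0.26, SE 0.08, edgeR adjusted p = 0.0882). Atg10, the enzyme that passes ATG12 to ATG5, was at 8.36, 7.88 and 8.16 CPM across Ctrl replicates 1 to 3 and 10.2, 9.80 and 12.2 CPM across ZM replicates 1 to 3, also without overlap (log2 fold 0.40, SE 0.13, edgeR adjusted p = 0.0873). Atg7, the activating enzyme of both conjugation reactions, had a log2 fold of 0.30 (SE 0.12) without overlap, and 0.19 without ZM replicate 3. Atg3, the enzyme that joins Atg8 proteins to lipid and had the highest FPKM of these 8 genes, was at 82.8, 91.8 and 92.1 CPM across Ctrl replicates 1 to 3 and 91.4, 81.1 and 97.5 CPM across ZM replicates 1 to 3. Those groups overlapped (log2 fold 0.02, SE 0.10). Atg4a overlapped as well, with a log2 fold of -0.11 (SE 0.10). The level of Atg4a is uncertain because the transcript of Atg4a-ps (40 counts against 9059) matches 99.3% of 2115 bases. That of Syt6 (168 counts) matches 99.4% of 508 bases. The length behind the FPKM of Atg4a was 3011 bases, where its exons in GENCODE M21 sum to 2661.

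The promoter windows of 28 of the 35 members were found in a RefSeq table for GRCm38.p6, covering 250 bases before to 50 bases after a RefSeq start. Of the 30 windows (2 each for Nbr1 and Atg4a), 27 had that start within 100 bases of a GENCODE M21 transcript start of the gene and 21 within 100 bases of the gene's outermost start. The Atg7 window lay 27999 bases inside the GENCODE gene and 9066 bases from its nearest transcript start, and the Atg14 window had its start at a transcript start 2215 bases inside the gene. The E-box core CACGTG, the kind of motif that TFEB and its relatives bind in lysosomal and autophagy genes, was in 4 of these 28 (14.29%), Atg3, Atg5, Atg7 and Atg14, beside 8.09% of 27025 genes with such a window. Its longer form TCACGTGA, which contains CACGTG, was in Atg3 alone of the members and in 1.12% of all genes. The antioxidant response core TGACNNNGC was in 3 of 28 (10.71%), Atg13, Ulk2 and Map1lc3b, beside 13.99% of all genes. Both strands were searched, and a match describes letters only, not a bound site. The windows of Atg5 and Atg3, the conjugation genes with an E-box core near the annotated gene start, are shown because their log2 folds differed in size, at 0.51 and 0.02. They lie at chr10:44268089-44268388 (Atg5) and chr16:45158579-45158878 (Atg3), both on the forward strand, and capitals mark the matches.
Atg5: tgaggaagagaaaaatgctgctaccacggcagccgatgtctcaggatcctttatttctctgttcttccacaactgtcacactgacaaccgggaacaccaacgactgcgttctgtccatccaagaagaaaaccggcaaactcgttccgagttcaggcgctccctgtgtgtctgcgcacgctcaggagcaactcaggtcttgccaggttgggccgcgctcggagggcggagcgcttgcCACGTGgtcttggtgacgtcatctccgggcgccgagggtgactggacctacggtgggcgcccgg
Atg3: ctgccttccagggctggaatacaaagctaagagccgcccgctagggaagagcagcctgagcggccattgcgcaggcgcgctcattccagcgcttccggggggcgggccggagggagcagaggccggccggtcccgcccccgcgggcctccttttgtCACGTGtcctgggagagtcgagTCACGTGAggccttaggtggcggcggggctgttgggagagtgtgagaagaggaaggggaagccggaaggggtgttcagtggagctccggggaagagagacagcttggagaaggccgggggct
The match begins 14 bases before the RefSeq start in Atg5, and 94 and 71 bases before it in Atg3, where the match nearer to the start is the longer form. Atg7 and Atg14, the other members with the core, had log2 folds of 0.30 and 0.0076. A link between these matches and the folds was not tested.

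Fusion of the autophagosome with the lysosome needs the SNARE protein syntaxin 17 and the tethering factor EPG5. Of these 2 genes edgeR and DESeq2 called 0, with 0 and 1 at an unadjusted p under 0.05. Stx17 was at 37.4, 38.3 and 34.9 CPM across Ctrl replicates 1 to 3 and 39.9, 42.8 and 40.2 CPM across ZM replicates 1 to 3. The ZM libraries were higher without overlap, and the difference did not pass the test (log2 fold 0.15, SE 0.09, edgeR adjusted p = 0.281). Epg5 was lower in the ZM mean and overlapped, with 17.0 to 30.4 CPM in ZM and 30.2 to 32.5 CPM in Ctrl (log2 fold -0.43, SE 0.20, edgeR adjusted p = 0.179; -0.24 without ZM replicate 3).

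Genes around this core were read from 6 further lists with 97 tested genes, of which 9 rose and 4 fell (13.4% called), again near the 11.0% of all genes tested. All 13 lost the call in edgeR without any 1 Ctrl library, each still at an unadjusted p under 0.05, and Atg9b and Lamp2 were those that kept it without ZM replicate 1. All 13 kept it without ZM replicate 2 and without ZM replicate 3. With no composition factor Atg16l2 and Ncoa4 lost the call (edgeR adjusted p = 0.0559 and 0.0537).

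Among 12 other core genes, 2 rose and 1 fell (25% called, beside 11.0% of all genes tested). edgeR gave 5 of the 12 an unadjusted p under 0.05. DESeq2 called 4 of them, where it called 21.1% of all genes. Bcl2l1, whose product BCL-XL binds Beclin 1 and also blocks apoptosis, rose from 30.4 ± 0.295 to 59.0 ± 14.5 CPM (log2 fold 0.96, SE 0.17, edgeR adjusted p = 0.0173). Atg16l2, a relative of Atg16l1, rose from 9.79 ± 1.54 to 14.7 ± 0.552 CPM (edgeR adjusted p = 0.0400). Atg9b, the second ATG9 gene, fell from 3.62 ± 0.883 to 1.35 ± 0.159 CPM (log2 fold -1.42, SE 0.24, edgeR adjusted p = 0.0140). Atg16l2 and Atg9b thus passed the test where Atg16l1 and Atg9a did not, and Atg9b rests on 55 to 236 counts per library. Atg4c and Atg4d, the listed relatives of Atg4a and Atg4b, did not pass (log2 folds 0.055 and -0.03). The differences between paralogs were not tested.

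Of 20 further selective receptors and adaptors, 1 rose and 1 fell (10% called, beside 11.0% of all genes tested). edgeR gave 7 of the 20 an unadjusted p under 0.05, and DESeq2 called 4, where it called 21.1% of all genes. Ncoa4, the receptor that delivers ferritin to lysosomes for iron release, was at 188, 181 and 174 CPM across Ctrl replicates 1 to 3 and 109, 133 and 78.8 CPM across ZM replicates 1 to 3. It fell without overlap (log2 fold -0.76, SE 0.18, edgeR adjusted p = 0.0401). Retreg1, the endoplasmic reticulum receptor FAM134B, rose from 35.8 ± 1.21 to 51.1 ± 6.69 CPM (edgeR adjusted p = 0.0342). Of 15 genes of the fusion machinery, 2 rose and 1 fell (20% called, beside the same 11.0%). edgeR gave 8 of the 15 an unadjusted p under 0.05, and DESeq2 called 5, beside the same 21.1% of all genes. Lamp1 and Lamp2, the most abundant proteins of the lysosome membrane, both rose. Lamp1 reached 1940.4 ± 563 CPM with ZM from 1107 ± 33.9 CPM (edgeR adjusted p = 0.0397), and Lamp2 572 ± 76.1 from 373 ± 7.57 CPM (edgeR adjusted p = 0.0197). Vps39, a subunit of the HOPS tether, fell from 113 ± 2.67 to 84.1 ± 4.08 CPM (log2 fold -0.43, SE 0.08, edgeR adjusted p = 0.0245).

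The mTORC1 kinase holds autophagy back when amino acids are present. Of its 29 listed subunits and inputs 2 rose and 1 fell (10.3% called, beside 11.0% of all genes tested). edgeR gave 14 of the 29 an unadjusted p under 0.05. DESeq2 called 11 of them, where it called 21.1% of all genes. Sesn1 and Sesn2, stress-induced sestrins that restrain mTORC1, both rose. Sesn1 reached 64.5 ± 15.1 CPM with ZM from 37.5 ± 1.86 CPM (edgeR adjusted p = 0.0286), and Sesn2 26.8 ± 3.84 from 17.4 ± 0.737 CPM (edgeR adjusted p = 0.0282). Rragd, a Rag GTPase, fell from 33.9 ± 1.78 to 24.6 ± 2.54 CPM (edgeR adjusted p = 0.0410). Of 10 tested AMPK subunits and activators, edgeR called 0, with 3 at an unadjusted p under 0.05 and 2 called by DESeq2. Of 11 transcription factors and regulators of autophagy genes, 2 rose and 0 fell (18.2% called, beside the same 11.0%). edgeR gave 4 of the 11 an unadjusted p under 0.05, and DESeq2 called 3. Nfe2l2, which encodes NRF2, rose to 290.2 ± 54.0 CPM with ZM, against 172 ± 4.12 CPM in Ctrl (edgeR adjusted p = 0.0189). Tfe3, a relative of TFEB, rose from 117 ± 3.83 to 165 ± 21.6 CPM (edgeR adjusted p = 0.0366).

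**Figure D4:**
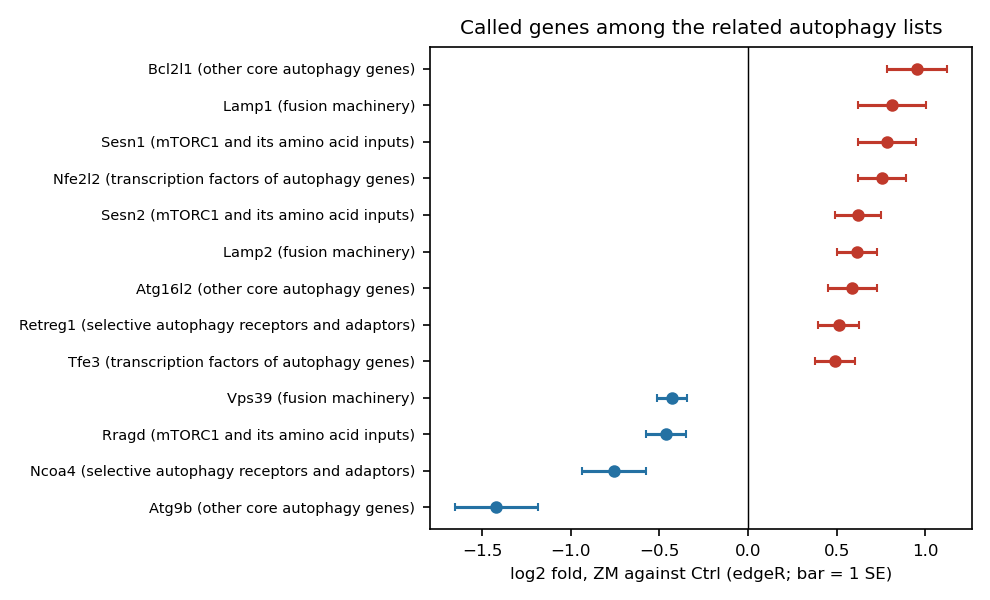
Log2 folds, ZM against Ctrl (x axis), of the 13 genes called by edgeR among the 97 tested genes of the 6 related lists (y axis, list in brackets); bars are 1 SE from 3 libraries per group. Bcl2l1 at 0.96 and Lamp1 at 0.81 are the highest, and Atg9b at -1.42 is the lowest.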

How the data were processed

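Messenger RNA libraries of 3 Ctrl and 3 ZM cultures were compared, with groups and replicate numbers from the sample titles and table columns matched by name. The deposited counts were raw whole numbers for each gene, and the authors' FPKM, also deposited, divided these by exon length and library total. The submitters' processing notes name featureCounts 2.0.3, Subread, HISAT2 2.2.1, mm10 and DESeq2, without roles. How strand was treated and which annotation was counted are not given in the sources used here. Of low counts, from 1 to 20, 72.7% to 76.4% were even in each library, as when both mates of a pair are counted, so fragments may number fewer than the counts.

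Counts were tested with edgeR 4.0.16 (R 4.3.3; filterByExpr, TMM factors, quasi-likelihood test on group alone) over 15590 genes, with Benjamini-Hochberg adjustment and a threshold of 0.05. Levels are CPM on TMM-scaled library sizes. SE was taken as |log2 fold| divided by the root of F. FPKM entered no model. The method was tested on simulated counts that gave both groups the same spread for each gene. The ZM libraries here were more spread than the Ctrl libraries, so the simulation does not cover that feature of the data. The members and lists were chosen with earlier results of these data known. Values in every library are given for called members, for those with adjusted p from 0.05 to 0.1 and for the member with the highest FPKM of each role.

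Gene positions come from the GENCODE M21 annotation of GRCm38 (mm10), whose exon lengths equalled the length behind the deposited FPKM for 34 of 35 members. Exons of 10 members overlapped another gene, and of the partners on the opposite strand, Gskip, Ankzf1 (Atg9a) and Zcchc14 (Map1lc3b) had over 10% of the member's counts. Larger parts of the exons were shared in Becn1 (43.93%), Atg9a (31.79%, with Gm29253 on the same strand), Gabarapl1 (28.32%), Uvrag (17.59%) and Sqstm1 (17.28%). Those partners had at most 0.61% of the member's counts. The effect of shared exons on the levels of these members was not tested. Similar transcripts were searched with BLAST 2.17.0 (at least 95% identity over 100 bases). Alternatives were RLE, upper-quartile and no composition factors, no filter, a minimum of 1 CPM in every library, limma-voom (limma 3.58.1), DESeq2 1.42.0, robust estimation, a replicate block, counts halved and each library left out in turn.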

Additional observations from a re-analysis of the deposited data

How the results depend on the processing

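Nbr1, Atg2b and Atg5 kept their direction under all 16 alternatives, and edgeR, DESeq2 or limma-voom called them in 12, 12 and 10 of these. The number of members risen was 1 in the reported fit, 0 with upper-quartile factors, 2 with no filter and 7 with DESeq2, and 0 to 13 with 1 library left out. The number fallen was 0 to 3 with 1 library left out. In the related lists, 14 genes rose with no filter and 18 with DESeq2, which called 11 fallen, and leaving out 1 library gave 0 to 31 risen and 0 to 14 fallen. Over all genes tested, DESeq2 called 1712 risen and 1583 fallen, and leaving out 1 library gave 31 to 2571 risen and 117 to 2452 fallen. The cause was not tested; a fit without 1 library leaves 2 samples in that group.

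Members with log2 folds near 0 changed sign. With no composition factor, which moved the median of all genes to -0.06 and that of the members to 0.10, values were -0.022 for Optn, -0.0014 for Atg101, -0.061 for Rb1cc1, -0.059 for Atg14, -0.032 for Atg2a and -0.051 for Atg3. With at least 1 CPM in all libraries they were -0.015 for Rb1cc1, -0.010 for Atg14 and -0.00068 for Atg3. Rb1cc1 was also at -0.0022 with RLE factors and with DESeq2, -0.0060 with limma-voom, -0.0059 with the replicate block and -0.0010 with counts halved. With 1 library left out, ranges were -0.0077 to 0.083 for Optn, -0.040 to 0.19 for Atg101, -0.11 to 0.092 for Rb1cc1, -0.029 to 0.044 for Atg14, -0.054 to 0.039 for Ambra1, -0.12 to 0.12 for Atg2a, -0.20 to 0.086 for Atg9a and -0.042 to 0.089 for Atg3.

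Deviations of same-numbered samples correlated at 0.020, 0.053 and 0.137 across genes, and not every sample correlated best with its own number, so the numbers were not taken to pair the samples. With the replicate block, 1 member rose and 2 fell: Gabarap was called (adjusted p = 0.0478), Atg5 was not (0.0626), and Nbr1 and Atg2b kept their calls. Of the 13 called related genes, 10 kept the call with the replicate block, without Retreg1 (adjusted p = 0.0532), Vps39 (0.0567) and Rragd (0.0687), and 11 kept it with no composition factor, without Atg16l2 (0.0559) and Ncoa4 (0.0537). The lowest member count in a library was 390.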
